A study of Mus musculus with 8 samples.

Results

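Retinoic acid, the active form of vitamin A, was examined through 9 genes that bind it, make it, break it down or respond to it, measured in E11.5 mouse neural tube. The genes were chosen by name. They are Crabp1 and Crabp2, which encode cytosolic binding proteins, Aldh1a2, which encodes a synthetic enzyme, Cyp26a1, Cyp26b1 and Cyp26c1, which encode degrading enzymes, and the nuclear receptor genes Rara, Rarb and Rarg. All 9 had a row among the 24420 of the total RNA table, and 8 of them passed the count filter for testing. The polysomal table, of 5804 rows, listed 4 of the 9, namely Crabp1, Crabp2, Cyp26b1 and Rara.

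The 8 libraries fell into 4 groups of 2. Embryos of the genotype Lin28a-/-;b-/-, lacking both Lin28 genes and called dKO here, gave polysomal and total RNA, and so did wildtype (WT) embryos, which the protocol calls controls. Polysomal RNA is RNA that sediments with several ribosomes. The proteins made from Lin28a and Lin28b bind RNA and keep let-7 microRNAs from maturing. The labels give the tissue as brain and the protocol as neural tube. They do not say whether the alleles were lost in the whole embryo, whether embryos were pooled, or whether replicates came from separate litters, so p-values cover the spread between these libraries alone, which may be technical.

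Retinoic acid is made from retinal by enzymes such as Aldh1a2, which in the embryo is best known from the mesoderm beside the hindbrain and spinal cord, from the meninges and from some motor neurons. Cyp26 enzymes clear it, which leaves domains of high and low retinoic acid along the body axis. Inside the cell it is held by Crabp proteins and acts on receptors of the Rar family, which bind DNA together with Rxr partners and switch on genes including Hox genes, Rarb and Cyp26a1.

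Response elements for these receptors are often direct repeats of a hexamer spaced by 5 bases (DR5), and the windows of 250 bases before to 50 bases after transcription start sites given by RefSeq (GRCm38.p6) were searched for them. The hexamers were AGGTCA with its variants, namely AGTTCA, then GGGTCA, and last GGTTCA, in any pairing and on both strands. Crabp2 had no window and was not searched. Of 12 windows for the other 8 genes, 2 held a DR5, those of Cyp26a1 and Rarb, against 0.0974% of 32851 windows genome-wide. Spacings of 1 and 2 bases were found in none of the 12, against 0.222% and 0.268% of all windows. The Cyp26a1 window (chr19:37697558-37697857, plus strand) held its DR5 on the opposite strand from position -32 relative to the start, and the Rarb window (chr14:16575427-16575726, minus strand) held it on the strand of the gene from position -53. Both are shown with the DR5 in capitals because both genes are known targets of the receptors. The Crabp1 window (chr9:54764498-54764797, plus strand) is that of the most abundant gene and had no match. A match describes these letters and does not show that a receptor binds.
Cyp26a1: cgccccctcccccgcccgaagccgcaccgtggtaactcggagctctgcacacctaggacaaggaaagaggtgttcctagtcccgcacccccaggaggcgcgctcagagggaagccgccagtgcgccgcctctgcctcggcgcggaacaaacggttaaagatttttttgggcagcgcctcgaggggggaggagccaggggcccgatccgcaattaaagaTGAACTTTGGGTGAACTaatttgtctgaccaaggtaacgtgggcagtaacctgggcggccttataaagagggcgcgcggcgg
Rarb: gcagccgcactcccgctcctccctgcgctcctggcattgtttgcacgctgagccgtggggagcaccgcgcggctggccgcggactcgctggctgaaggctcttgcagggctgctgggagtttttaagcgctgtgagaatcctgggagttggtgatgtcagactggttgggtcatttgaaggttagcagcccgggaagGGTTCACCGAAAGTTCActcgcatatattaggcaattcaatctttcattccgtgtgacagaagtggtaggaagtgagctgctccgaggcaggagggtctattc
Crabp1: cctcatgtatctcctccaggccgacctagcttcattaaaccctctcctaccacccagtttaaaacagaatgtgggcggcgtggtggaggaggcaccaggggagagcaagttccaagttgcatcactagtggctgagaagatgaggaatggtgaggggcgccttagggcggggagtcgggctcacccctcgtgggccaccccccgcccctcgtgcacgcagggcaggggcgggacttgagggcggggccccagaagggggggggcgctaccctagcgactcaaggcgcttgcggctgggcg

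Since loss of Lin28 is known to raise let-7, the 3′ untranslated regions of the 9 genes in GENCODE M21 were also searched for the heptamer CTACCTC, which pairs with bases 2 to 8 of let-7 (capitals). The sequence of let-7a is shown because 10 of 11 mature family members in the RefSeq table carry its seed.
mmu-let-7a-5p: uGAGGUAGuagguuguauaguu
None of the 9 held the heptamer in its longest annotated 3′ untranslated region. These regions ran from 91 to 2853 bases. Among genes whose region was within 25% of the same length, the heptamer was present in 0.96% for Cyp26c1, 1.55% for Crabp1, 2.7% for Crabp2 and 15% for Cyp26b1, so its absence was the common case at each of these lengths. Shorter or mismatched sites were not searched, and let-7 itself was not measured in these libraries.

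Column totals were 15060560 to 15768767 counts in the 4 total RNA libraries. The listed genes of the polysomal table summed to 3740980 and 5164982 counts in dKO and to 14874143 and 15414712 in WT, sums over part of each library that do not give its depth. Replicates were least alike in dKO polysomal RNA (chi-square per degree of freedom 25, against 2.9 to 3.23 in the other groups). Both targeted genes were lower in dKO total RNA, Lin28a by a log2 fold change of -3.35 ± 0.12 (SE) and Lin28b by -1.28 ± 0.07. The tissue label was checked on neural markers. Progenitor genes (Sox1, Sox2, Pax6, Nes, Fabp7, Hes5, Vim) summed to 3350 to 3380 CPM (counts scaled to the library size after TMM normalization) in dKO and 3720 to 3740 CPM in WT. Neuronal genes (Tubb3, Dcx, Elavl3, Elavl4, Stmn2, Map2, Nefl) summed to 4220 to 4230 CPM in dKO and 4300 to 4310 CPM in WT, and no gene of either list was at 0.

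The first comparison asked which of the genes were at another level in dKO than in WT tissue. Both binding protein genes were lower in dKO total RNA, with log2 fold changes of -0.91 for Crabp1 and -1.10 for Crabp2, while no receptor gene passed the test. Of the degrading enzyme genes Cyp26c1 was lower and Cyp26b1 did not pass. In all, 3 of the 8 genes tested were called at an adjusted p of 0.05 (edgeR quasi-likelihood test, Benjamini-Hochberg over 14594 genes), all of them lower, against 30.7% of all genes called in either direction and 16% called lower. The median log2 fold change was -0.07 over the 8 and 0.00 over all genes.

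Levels were set side by side per kilobase of the longest GENCODE transcript, as CPM per kb. In dKO total RNA Crabp1 came first at 331 ± 14.9 CPM per kb (SD, n = 2 here and for all group means), followed by Crabp2 at 181 ± 5.87, Rara at 27.3 ± 1.26, Cyp26b1 at 17.5 and Rarb at 13.1 ± 0.233. Rarg stood at 4.16 ± 0.332 CPM per kb, and Cyp26c1, Aldh1a2 and Cyp26a1 were all below 1. In WT the first 5 had the same order, with Crabp1 at 622 ± 7.57, Crabp2 at 388 ± 7.07, Rara at 26.3 ± 0.601, Cyp26b1 at 16 ± 0.983 and Rarb at 14.3 ± 0.212 CPM per kb, then Rarg at 4.22 ± 0.301 and Cyp26c1 at 1.16 ± 0.294 CPM per kb. The binding protein genes were thus far above every enzyme and receptor gene in both genotypes. Neighbours from Crabp1 to Rarg were separated by more than their replicates. At the low end they were not: Cyp26c1 at 0.328 and 0.332 CPM per kb lay between the Aldh1a2 libraries at 0.199 and 0.422 in dKO, and Aldh1a2 at 0.253 and 0.38 overlapped Cyp26a1 at 0.259 and 0.462 in WT.

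**Figure D1:**
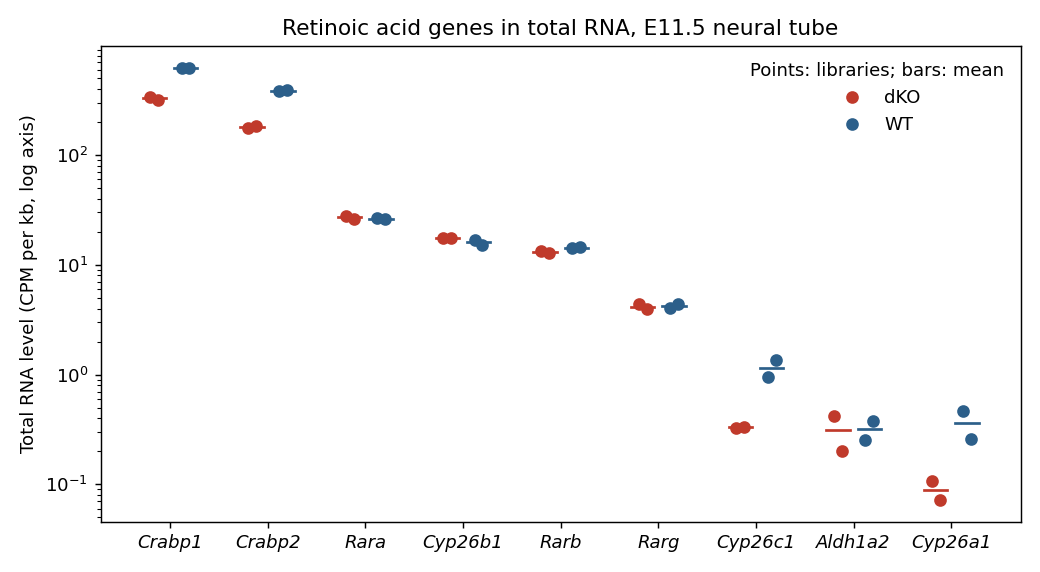
Total RNA level of each gene in CPM per kb of transcript on a log axis, with 1 point per library and a bar at the mean of each genotype. Crabp1 and Crabp2 are the highest, and their dKO points lie below their WT points, as do those of Rarb, Cyp26c1 and Cyp26a1. The dKO points of Cyp26b1 lie above its WT points, and the points of Rara, Aldh1a2 and Rarg overlap between genotypes.

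Crabp1 encodes the binding protein best known from neurons of the midbrain, hindbrain and spinal cord and from neural crest. It had 4305 and 3989 counts in dKO libraries, against 7899 and 7473 in WT libraries. The groups did not overlap. Crabp1 averaged 266 ± 12 CPM in dKO and 499 ± 6.08 CPM in WT, which is -0.91 ± 0.03 as a log2 fold change with its SE (adjusted p = 5.06e-148 in the quasi-likelihood test of edgeR). Crabp2, whose product hands retinoic acid to the receptors, had 2583 and 2672 counts in dKO libraries and 5592 and 5524 in WT libraries, again without overlap. Its mean was 168 ± 5.52 CPM in dKO and 361 ± 6.58 CPM in WT, or -1.10 ± 0.04 on the log2 scale (adjusted p = 3.49e-154, edgeR). Both falls had the same direction and stayed called under all 11 alternatives run, from -0.96 to -0.86 for Crabp1 and from -1.13 to -1.07 for Crabp2. Separation of the CPM of the genotypes was common, since 62.3% of genes tested showed it.

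The ratio of Crabp1 to Crabp2 counts does not depend on how libraries are scaled. In total RNA it was 1.67 and 1.49 in dKO, against 1.41 and 1.35 in WT. In polysomal RNA it was 1.005 in both dKO libraries, against 1.15 and 1.16 in WT. The ratio was thus higher in dKO total RNA and lower in dKO polysomal RNA, without overlap in either fraction. By CPM, 62.3% of genes tested in total RNA and 100% in polysomal RNA were without overlap too. In polysomal RNA the ratio can carry the trend with transcript GC content given below, since Crabp1 has 57.4% and Crabp2 50.6%. With that trend taken out, the polysomal log2 fold changes were -1.83 for Crabp1 and -0.82 for Crabp2. With 2 libraries a group the exact two-sided permutation test gave p = 0.333 in each fraction, which is the smallest value it allows.

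Marker lists of other cell types are read against the shares over all genes, of which 14.7% were called higher and 16% lower in total RNA. All 6 erythroid markers were called lower in dKO total RNA, with a summed level of 2690 CPM in both dKO libraries, against 4400 to 4470 CPM in WT. Of 7 progenitor markers 1 was called higher and 3 lower, and of 7 neuronal markers 2 were higher and 2 lower. None of the 6 neural crest and Schwann cell markers tested (of 7) was called. That list summed to 240 to 252 CPM in dKO and 236 to 244 CPM in WT, most of it from Tfap2b with 156 ± 9.36 CPM in dKO and 154 ± 2.18 CPM in WT. Sox10, a defining gene of neural crest and glia in the same list, had 1.41 ± 0.0782 CPM in dKO and 2.86 ± 0.536 CPM in WT (log2 fold change -1.02 ± 0.44, adjusted p = 0.0601, edgeR). In bulk tissue fewer cells of a type and less RNA per cell cannot be told apart, and the part of these lists in the results was not tested.

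Cyp26c1 and Cyp26a1 lie next to each other on chromosome 19, from 37685581 to 37693398 and from 37697798 to 37701536 on the plus strand of GRCm38, with 4399 bases between them. Cyp26c1 had 9 counts in each dKO library, against 26 and 36 in WT libraries. The groups did not overlap, and Cyp26c1 stood at -1.79 ± 0.58 as a log2 fold change (adjusted p = 0.00891, edgeR). The call was lost without dKO replicate 1 (adjusted p = 0.0817), dKO replicate 2 (0.0872) or WT replicate 2 (0.172), at log2 fold changes of -1.79, -1.80 and -1.51. Its direction held, at -1.51 or lower, under all 8 alternatives that gave a value. Cyp26a1, the inducible degrading enzyme and a known target of the receptors, had 3 and 2 counts in dKO libraries and 13 and 7 in WT libraries, too few to pass the filter. With no filter its log2 fold change was -1.96 ± 1.20 (adjusted p = 0.274, edgeR), so a difference was not detectable at this depth. Both genes of the pair had fewer counts in each dKO library than in each WT library. The CPM of the genotypes did not overlap in 62.3% of genes tested in total RNA, so this does not set the pair apart.

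Cyp26b1, also a degrading enzyme, had 1238 and 1223 counts in dKO libraries and 1178 and 1039 in WT libraries. Its CPM did not overlap between genotypes either, with 78.8 CPM in both dKO libraries and 75.0 and 68.8 CPM in WT. The difference was small and did not pass (log2 fold change 0.13 ± 0.07, adjusted p = 0.158, edgeR), with an approximate 95% interval of -0.01 to 0.27. Aldh1a2, the synthetic enzyme, had 15 and 7 counts in dKO and 9 and 13 in WT, with overlapping groups. Its log2 fold change was -0.02 ± 0.70 (adjusted p = 0.987), and the interval of -1.39 to 1.35 leaves changes of over 2-fold either way undetected. Of 13 mesenchyme and meninges markers tested 1 was called higher and 5 lower, against 14.7% higher and 16% lower over all genes. The list summed to 810 to 820 CPM in dKO and 822 to 838 CPM in WT. Zic1, the 1 called higher, was its largest part, with 344 ± 5.06 CPM in dKO and 313 ± 4.78 CPM in WT. Twist1, Pdgfra, Foxc1, Foxd1 and Col3a1 were called lower. The 8 motor neuron markers summed to 210 to 213 CPM in dKO and 187 to 192 CPM in WT. Of these Foxp1, the largest part, was called higher, with 157 ± 1.51 CPM in dKO and 130 ± 0.811 CPM in WT. Isl2 was called lower, with 2.44 ± 0.746 CPM in dKO and 6.07 ± 0.0656 CPM in WT.

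Of the receptor genes, Rara had 1497 and 1385 counts in dKO and 1422 and 1325 in WT. Rarb, which held a DR5 near its start, had 648 and 624 counts in dKO and 690 and 678 in WT. Rarg had 204 and 180 counts in dKO and 186 and 198 in WT. Counts of Rara and Rarg overlapped between genotypes, and those of Rarb did not. The log2 fold changes were 0.05 ± 0.07 for Rara (adjusted p = 0.627, edgeR), -0.12 ± 0.10 for Rarb (0.348) and -0.02 ± 0.17 for Rarg (0.95). The approximate 95% intervals ran from -0.08 to 0.18 for Rara, from -0.31 to 0.06 for Rarb and from -0.35 to 0.31 for Rarg.

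By distance over the 4 total RNA libraries, on log2 CPM relative to the WT mean, the genes nearest to Crabp1 among 11101 candidates were Rn45s, Filip1 and Lig1, at 0.0582, 0.0758 and 0.0851. Those nearest to Cyp26c1 were Aunip, Moxd1 and Hmga2, at 0.108, 0.303 and 0.41. Likeness over 4 libraries of 2 genotypes is largely the genotype difference itself.

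The wider pathway was described from a list of 34 genes of transport, synthesis, binding, Rxr receptors and coregulators, of which 23 were tested. In total RNA 4 were called higher and 3 lower, against 14.7% called higher and 16% lower (30.7% in all) over all genes, and the median log2 fold change was 0.04 over the list and 0.00 over all genes. The share called in the list was close to that of all genes. Ttr, which carries thyroid hormone and the retinol-binding protein of blood, rose to 37.8 ± 0.573 CPM in dKO, against 10.9 ± 1.95 CPM in WT (log2 fold change 1.79 ± 0.13, adjusted p = 1.07e-40, edgeR). Ttr is also a marker of the choroid plexus. Aqp1 was the other of 6 such markers called, also higher. The list summed to 169 to 174 CPM in dKO and 142 to 145 CPM in WT. That sum includes Ttr itself, so it is not separate from the rise of Ttr. Most of the sum came from Otx2, which was not called, with 113 ± 4.76 CPM in dKO and 120 ± 0.716 CPM in WT.

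Smaller differences were called for Adh5, an alcohol dehydrogenase (-0.33 ± 0.05), Fabp5, which can carry retinoic acid to another receptor (0.29 ± 0.08), and the coregulator genes Ncoa1 (0.39 ± 0.10), Ncor1 (0.10 ± 0.04) and Ncoa3 (-0.22 ± 0.07). None of the 3 Rxr genes was called. Rxra was the most abundant of them by CPM, with 146 ± 1.38 CPM in dKO and 145 ± 1.02 CPM in WT. Rdh10, which makes retinal from retinol, had 13.9 ± 0.0317 CPM in dKO and 11.3 ± 0.752 CPM in WT (0.30 ± 0.17, adjusted p = 0.162). The other retinal-oxidizing genes were hardly seen: Aldh1a1 had 8 counts and Aldh1a3 33 over the 4 libraries, and neither was tested.

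Of 32 genes known to respond to retinoic acid in embryos 28 were tested, with 9 called higher and 3 lower, against 14.7% higher and 16% lower over all genes, and with a median log2 fold change of 0.03. Those past 0.5 on the log2 scale were Hoxa5 (1.04 ± 0.12), Hoxb5 (0.83 ± 0.10), Gbx2 (0.73 ± 0.11), Hoxb6 (0.69 ± 0.20) and Hoxa3 (0.50 ± 0.11), which were higher, and Hoxb1 (-0.87 ± 0.35), which was lower with 2.24 ± 0.795 CPM in dKO and 4.10 ± 1.31 CPM in WT. Except for Gbx2, a gene of the anterior hindbrain, these are Hox genes, which carry position along the hindbrain and spinal cord. Hindbrain and spinal cord markers, which share Hox genes with this list, gave 7 higher and 1 lower of 13 tested, beside the same 14.7% and 16% over all genes, with a summed level of 411 to 422 CPM in dKO and 330 to 349 CPM in WT. Hoxc8 had too few counts for the test in total RNA: it was at 0 in both dKO libraries and at 0.195 ± 0.00549 CPM in WT (scaled on the genes in both tables), while in polysomal RNA it had 4.07 ± 2.14 CPM in dKO and 0.22 ± 0.138 CPM in WT. Forebrain markers gave 2 higher of 7. Whether the dissections held the same share of each region was not tested. Hoxb4 (-0.39 ± 0.13) and Foxc1, a mesenchymal transcription factor gene (-0.37 ± 0.12), were the other genes called lower, so the Hox genes did not all move one way.

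**Figure D2:**
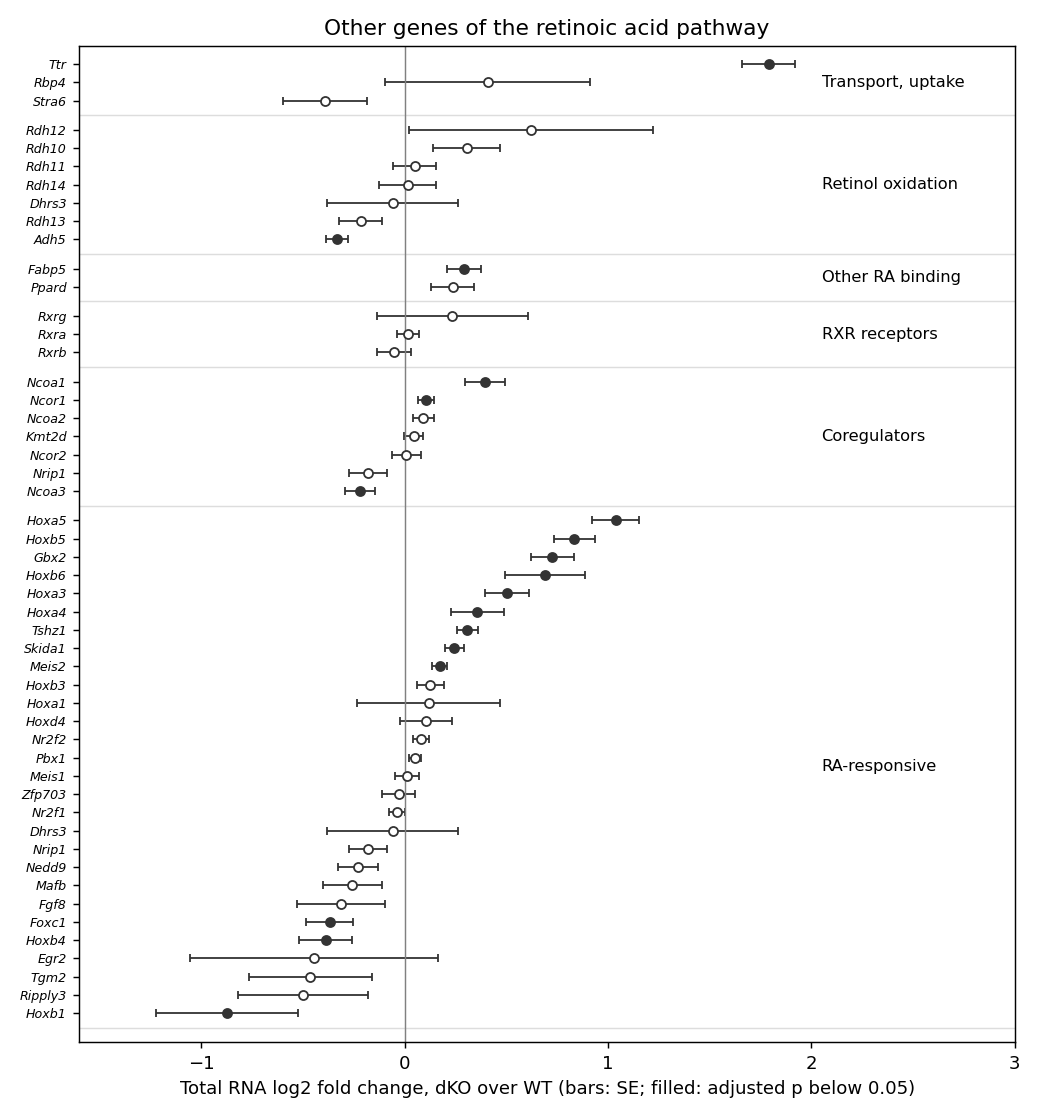
Total RNA log2 fold change (dKO over WT) with its SE for the tested genes of the pathway list, 1 left out, and of the responsive list, grouped by role and filled where the adjusted p is below 0.05. Ttr is the farthest to the right at 1.79, the 3 Rxr genes are open symbols near 0, and in the responsive group Hoxa5 is highest and Hoxb1 lowest.

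The second comparison asked how the 4 genes in the polysomal table differed between dKO and WT polysomal RNA. Crabp1 and Crabp2 were lower in dKO there too, and Cyp26b1 and Rara were higher. All 4 were called, but so were 99.7% of the 5777 genes tested, with 47.2% higher and 52.5% lower. Genes averaging 100 counts or more left an empty band in the log2 ratio of summed dKO to WT counts, from -2.04 to -1.71, with 2927 genes below and 2514 above. How the listed genes were selected is not stated. In all 5777 genes tested the dKO and WT libraries did not overlap, so the table held almost only genes that differed by genotype. A call in this table therefore does not set these 4 apart, and its p-values are given as description. The later comparisons of fractions in dKO and in WT and the interaction of genotype with fraction use the same rows. The p-values in dKO and in the interaction have the same limit. The comparison in WT takes its scaling and spread from a fit that includes the dKO libraries. Its share of genes called holds for these rows alone. The 5 genes without a row, among them Rarb, Rarg and Aldh1a2, were not analysed in this fraction.

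Crabp1 had 366 and 399 CPM in dKO polysomal libraries, against 704 and 699 CPM in WT. This was -0.87 ± 0.07 on the log2 scale (adjusted p = 0.000141, edgeR). Crabp2 had 364 and 397 CPM in dKO, against 610.1 and 601 CPM in WT (-0.67 ± 0.07 on the log2 scale, adjusted p = 0.000286). The dKO libraries of both genes lay below the WT libraries, as in total RNA. Cyp26b1 had 142 and 199.6 CPM in dKO, against 95.2 and 92.7 CPM in WT (0.87 ± 0.16, adjusted p = 0.00268). Rara had 276 and 215 CPM in dKO, against 116 and 112 CPM in WT (1.10 ± 0.13, adjusted p = 0.000501). For these 2 genes the dKO libraries lay above the WT libraries but differed from each other, Cyp26b1 being higher in replicate 2 and Rara in replicate 1. Every gene tested showed such separation in this table (100%). In the same libraries the 4 neuronal markers listed summed to 2500 to 2640 CPM in dKO and 4150 to 4180 CPM in WT, and the 6 progenitor markers listed to 6180 to 6490 CPM in dKO and 4450 to 4490 CPM in WT; their part in these values was not tested.

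The polysomal differences followed base composition. Across 5739 genes the log2 fold change rose with the GC content of the transcript (Spearman rho = 0.774, a description over genes, which share libraries and are not independent), against a rho of -0.0938 over 14462 genes in total RNA. Rara has a GC content of 59.2%, Crabp1 57.4%, Cyp26b1 56.7% and Crabp2 50.6%. Genes within 1 percentage point of Cyp26b1 and of Rara had median log2 fold changes of 0.86 and 0.94, about where these 2 genes lay. Those near Crabp1 had a median of 0.88, with 1.5% of them lower than Crabp1, and those near Crabp2 a median of 0.43, with 19.9% of them lower than Crabp2, while both binding protein genes lay below 0. With the GC trend taken out as an offset, Cyp26b1 was at -0.02 ± 0.19 (adjusted p = 0.934, edgeR) and Rara at 0.00 ± 0.09 (0.987), whereas Crabp1 was at -1.83 ± 0.09 (6.26e-05) and Crabp2 at -0.82 ± 0.06 (0.000262). The fall of the binding protein genes was thus found with and without the offset, and the rise of Cyp26b1 and Rara only without it. RLE scaling moved the median of all listed genes to -0.11, against -0.35 with TMM, and left Crabp1 at -0.64 and Crabp2 at -0.43.

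**Figure D3:**
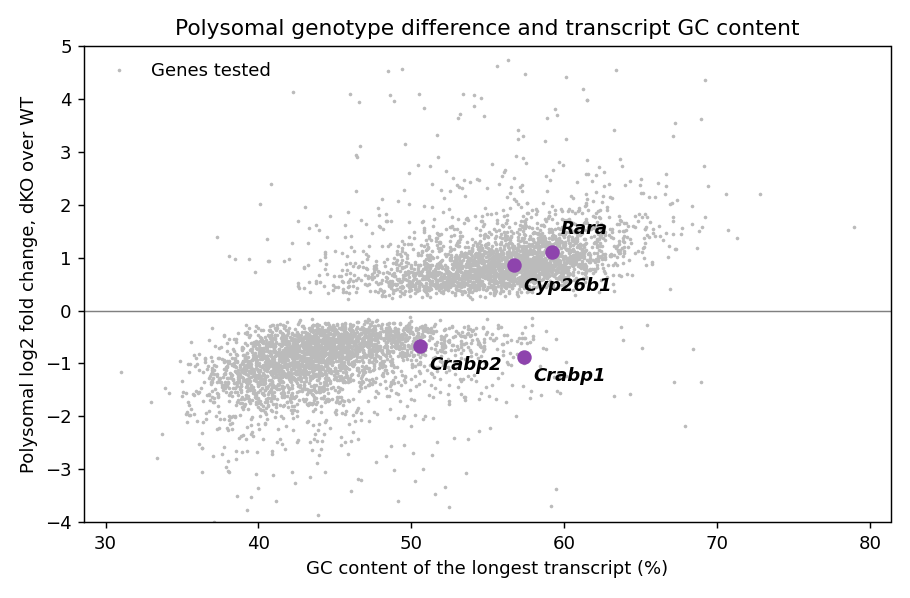
Polysomal log2 fold change (dKO over WT) against the GC content of the longest transcript for the genes tested, with the 4 listed retinoic acid genes in purple; 69 of 5739 genes lie outside the plotted range of -4 to 5. Cyp26b1 and Rara lie within the cloud at their GC content, Crabp1 lies below most genes of like GC content, and a band around 0 is empty.

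**Figure D4:**
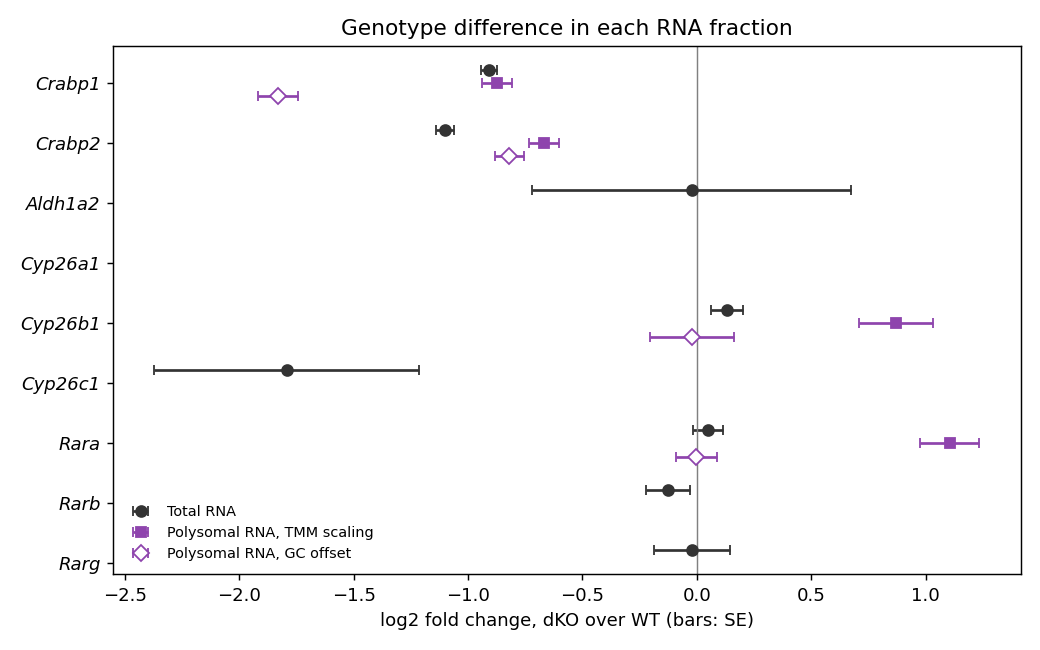
Log2 fold change (dKO over WT) with its SE in total RNA, in polysomal RNA with TMM scaling and in polysomal RNA with the GC offset; genes without a symbol were not tested or not listed. Crabp1 and Crabp2 are below 0 in all 3, while Cyp26b1 and Rara move to near 0 with the offset.

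The third question was how the polysomal level of each gene stood relative to its total RNA level within a genotype, over the 5768 genes tested in both tables with all 8 libraries in 1 fit. In WT the 4 genes were at similar CPM in both fractions, and in dKO Crabp2, Cyp26b1 and Rara were higher in polysomal RNA. On the scale set by the shared genes, Crabp2 had 390 ± 26.1 CPM in dKO polysomal RNA and 251 ± 7.99 CPM in dKO total RNA (0.64 ± 0.06 on the log2 scale, adjusted p = 2.65e-06, edgeR). Crabp1 had 392 ± 26.4 CPM in dKO polysomal RNA and 396 ± 18.2 CPM in dKO total RNA (-0.01 ± 0.06, adjusted p = 0.881). In dKO 3 of 4 genes were called, as were 90% of all genes (43.1% higher and 46.9% lower), and Cyp26b1 (0.59 ± 0.13) and Rara (0.86 ± 0.10) were the other 2. With the GC offset Crabp2 was still called higher at 0.47 (adjusted p = 2.41e-05, edgeR), and Cyp26b1 was at -0.28 (0.113). Rara at -0.22 (0.0291) and Crabp1 at -0.94 (3.21e-07) were then called lower in polysomal RNA.

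In WT none of the 4 was called by edgeR, against 11.9% of all genes (3.47% higher and 8.48% lower). Crabp2 had 609 ± 7.99 CPM in WT polysomal RNA and 541 ± 10.6 CPM in WT total RNA (0.17 ± 0.05, adjusted p = 0.07, unadjusted p = 0.0103). Crabp1 had 705 ± 5.3 CPM in WT polysomal RNA and 748 ± 8.27 CPM in WT total RNA (-0.09 ± 0.05, adjusted p = 0.364), Cyp26b1 was at -0.19 ± 0.13 and Rara at -0.23 ± 0.10. At an unadjusted p of 0.05 Crabp2 and Rara passed. The count rose to 4 when only the 4 WT libraries were fitted, an alternative added after the data were seen, with Crabp2 at 0.17 ± 0.03 and Rara at -0.22 ± 0.06, and also without dKO polysomal replicate 1 or 2. Over all genes the WT libraries alone gave 1972 calls with 47.7% of them higher, against 689 calls with 29% of them higher in the fit of all 8. DESeq2 called Crabp2 alone.

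The interaction of genotype with fraction tested whether the genotype difference was unequal in the 2 fractions. It was 0.47 ± 0.08 on the log2 scale for Crabp2 (adjusted p = 0.000323, edgeR), 0.78 ± 0.18 for Cyp26b1 (0.00236) and 1.09 ± 0.14 for Rara (6.31e-05), and 0.08 ± 0.08 for Crabp1 (0.37). Positive values mean that the dKO to WT ratio was higher in polysomal than in total RNA. So 3 of the 4 were called, against 89.5% of all genes (43.7% higher and 45.8% lower). With the GC offset Crabp2 was at 0.30 ± 0.08 (adjusted p = 0.00907), Crabp1 at -0.86 ± 0.09 (2.44e-05), Cyp26b1 at -0.09 ± 0.20 (0.743) and Rara at 0.01 ± 0.11 (0.973). Crabp2 was called in the same direction under all 17 alternatives run, from 0.30 to 0.60. The comparisons within a fraction, within a genotype and the interaction share libraries, so their values are not independent of each other.

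**Figure D5:**
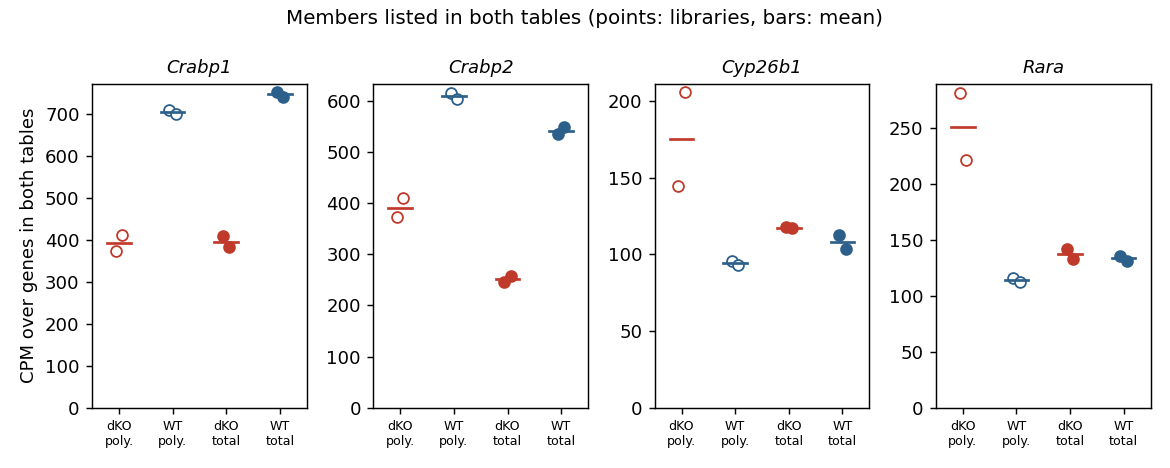
CPM over the genes in both tables for the 4 genes listed in both, with 1 point per library (open for polysomal, filled for total RNA) and a bar at the mean, in red for dKO and blue for WT. Crabp1 is lower in dKO in both fractions, Crabp2 is nearer to WT in polysomal RNA, and Cyp26b1 and Rara are higher in dKO polysomal RNA than in the other 3 groups.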

How the data were processed

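Strand-specific RNA-seq libraries were made from Trizol-extracted RNA, per the labels' protocols. The submitters' processing notes name FastQC, TopHat and HTSeq and list mm9, mm10 and GRCm38. Versions and roles, the annotation, the strand setting and the isolation of polysomes are not stated. Per gene symbol, the authors deposited raw whole-number counts in 2 tables, the polysomal one for fewer genes.

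Counts were tested with edgeR 4.0.16 in R 4.3.3 (TMM, filterByExpr, quasi-likelihood F test, Benjamini-Hochberg over all genes tested, threshold 0.05), with the 4 libraries of a fraction for each genotype comparison and all 8 for the others. Each SE was taken from the log2 fold change and F, as the size of one over the root of the other. Symbols turned into dates were left out of the 8-library fits. On simulated counts for the total RNA comparison (14396 genes) 99% of 2-fold and 77% of 1.5-fold changes were recovered. For the interaction (5758 genes) these were 83% and 26%. Each simulation changed 200 genes, all with higher counts than Aldh1a2. It gave every library the same spread and held no GC trend. These rates therefore do not cover Aldh1a2 or the less alike dKO polysomal replicates. Nor do they cover data in which most genes are called, as in the interaction (89.5%). Length and GC content came from the longest GENCODE M21 basic transcript. The genes and lists were chosen with earlier results of these data known. All 9 genes are reported, and 1 gene of the pathway list is counted but not reported here; list genes are named where called and past 0.5 on the log2 scale, and the others named were picked after their values were seen. The most alike genes are the 3 nearest with a mean of at least 5 CPM, predicted genes left out, for the most abundant gene and for the called gene that changed most. Alternatives were upper-quartile and RLE scaling, a DESeq2 1.42.0 fit, no filter, a 5 CPM minimum, a replicate block, each library left out, all 8 libraries in 1 fit, a GC offset (loess, span 0.5) with and without the block, and a scaling that sets the empty band of the polysomal table at no change.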

Additional observations from a re-analysis of the deposited data

Results flagged for a closer look

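The genotype difference was unequal in polysomal and total RNA for 3 of the 4 genes listed in both tables, by the interaction of genotype with fraction (edgeR quasi-likelihood test, Benjamini-Hochberg). The interaction was 0.471 on the log2 scale for Crabp2 (adjusted p = 0.000323), 0.781 for Cyp26b1 (adjusted p = 0.00236) and 1.09 for Rara (adjusted p = 6.31e-05), where a positive value means a higher dKO to WT ratio in polysomal RNA. The same test called 89.5% of the 5768 genes tested, so these calls do not set the 3 genes apart. All genes in this test were rows of the polysomal table, which held almost only genes that differed by genotype. The p-values are therefore given as description. The median size of the interaction over all genes, sign left aside, was 0.867. Crabp2 and Cyp26b1 lay below that size and Rara above it. With the GC offset Crabp2 remained called at 0.305, while Cyp26b1 and Rara were at -0.0937 and 0.00536. Crabp1, not called without the offset, was then called at -0.86 (adjusted p = 2.44e-05, edgeR), in the opposite direction. Crabp2 was thus not the only gene of the 4 called with the offset.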

How the results depend on the processing

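Of 343 values of single genes under alternatives, 296 kept the direction and the side of the threshold. With the direction kept, 5 lost a call and 21 gained one. The other 21 turned round, and some of these lost a call as well, among them Cyp26b1 and Rara in polysomal RNA and Cyp26b1 in the interaction, all with the GC offset. In total RNA the number of genes called was 2 to 3 under every alternative, Crabp1 and Crabp2 being called in each; leaving out 1 library turned Aldh1a2 to 0.412 (without dKO replicate 2) and 0.29 (without WT replicate 2) and Rarg to 0.0577 and 0.0516, and leave-one-out values ran from -0.658 to 0.412 and from -0.106 to 0.0577. DESeq2 gave no adjusted p to Cyp26c1 and Aldh1a2. In polysomal RNA the count fell to 2 with the GC offset, alone or with the replicate block, where Cyp26b1 was at -0.0214 and -0.0535 and Rara at -0.00214 and -0.00327. For polysomal against total RNA in WT the count was 0, against 1 with RLE, upper-quartile scaling, DESeq2 and the replicate block with GC offset, 4 with the WT libraries alone, and 0 to 4 with 1 library left out. In dKO Crabp1 turned to 0.132 with RLE (then called, adjusted p = 0.0418 by edgeR) and DESeq2 (not called), to 0.00913 with the 5 CPM filter and to 0.0362 and 0.0655 without replicate 1 of dKO total or polysomal RNA (leave-one-out range -0.0831 to 0.0655), while Cyp26b1 and Rara were at -0.285 and -0.22 with the GC offset and at -0.295 and -0.22 with the block added. In the interaction, the GC offset gave Crabp1 -0.858 and Cyp26b1 -0.0937, and -0.86 and -0.103 with the block. The empty band set at no change moved no call. Calls over all genes moved by over 1.5 times with DESeq2 (2942) and all 8 libraries in 1 fit (1283), against 4485 in total RNA. With the GC offset, and with the block added, they were 2705 and 2793 against 5760 in polysomal RNA, 3239 and 3177 against 5193 for the fractions in dKO, and 2313 and 2206 against 5160 in the interaction. In WT, leaving out 1 library gave 178 to 1990 against 689. The cause of these changes was not tested. Replicate numbers did not pair libraries by label, and deviations of same-numbered libraries correlated at 0.000979 in total and 0.0316 in polysomal RNA; with the replicate block the number of genes called was 3 in total RNA, 4 in polysomal RNA, 0 and 3 for the fractions in WT and dKO and 3 in the interaction, as without it. Depth limits Cyp26a1, Cyp26c1 and Aldh1a2, which had at most 36 counts in any total RNA library.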

Other observations

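Hoxb1, an early Hox target of retinoic acid that later marks a single hindbrain segment, was lower in dKO in both fractions, at -0.87 ± 0.35 in total RNA (adjusted p = 0.0418) and -2.42 ± 0.53 in polysomal RNA (adjusted p = 0.00491, edgeR), from few counts. In polysomal RNA 10 genes of the wider pathway list were tested, with 7 called higher and 3 lower in dKO. Of 11 responsive genes 5 were higher and 6 lower. Over all genes tested in that fraction 47.2% were called higher and 52.5% lower. Fabp5 was higher in dKO total RNA (0.29 ± 0.08) and lower in dKO polysomal RNA (-1.32 ± 0.13, adjusted p = 0.000262). The polysomal values come from a table in which 99.7% of genes were called. There the log2 fold change rose with the GC content of the transcript (Spearman rho = 0.774), which is 45.6% for Fabp5. The part of this trend in these polysomal values was not tested.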
